A study of Homo sapiens with 372 samples.

Results

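Single A2780 cells taken after 48 h of paclitaxel were compared with cells taken after 16 h of the same drug. Members were all cells of the deposited table that carry one of these labels, 53 cells at 48 h and 56 cells at 16 h, together 109 of 338 cells. Both groups received 5 nM paclitaxel and no celecoxib. The comparison addresses how the transcriptional response to the drug moves between an early and a late time. The 46 untreated cells of the study are given beside both groups as a reference, and they were not used to choose genes by size of change.

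A2780, an established line of human ovarian endometrioid adenocarcinoma cells, was grown in serum-containing medium. Paclitaxel binds beta-tubulin in the microtubule lattice and stabilizes the polymer. Spindles with stabilized microtubules hold the mitotic checkpoint active, and cells that leave such a mitosis can arrest with stabilized p53 and its target p21, or die. Stress pathways known to follow include the integrated stress response, in which translation control raises the transcription factor ATF4, and interferon-type responses to DNA outside the nucleus.

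Single cells were isolated on the Fluidigm C1 system and polyA-tailed RNA was copied by Smart-seq2. The labels carry 1 code for all cells of a time and another for the other time, without saying what the code marks. No second culture is labelled for either time. Cells that share a code are not replicates of a treatment. No test between times was therefore made, and SD values are spreads over cells. Each sample description holds an S number, and an index block (block) is a span of 96 such numbers. The blocks were set here, and the labels do not say what the numbers mark. All 16 h cells fell in block 1. The 48 h cells shared a single code, 22 of them in block 2 and 31 in block 4. The control cells all fell in block 4. Time, code and index block cannot be told apart between 16 and 48 h. The 2 index blocks of the 48 h cells were each compared with the 16 h cells as a check. Read totals are unknown. The number of genes detected per cell had a median of 6126 (4817 to 8316) at 16 h and 6351 (4751 to 7854) at 48 h. Of the cells listed, 2 of 58 at 16 h and 12 of 65 at 48 h have no column of values and were not analysed here. The study states that it filtered out cells whose housekeeping genes had an averaged E-value, a spike-in scaled level, under 1. Of 12 markers chosen for A2780 and mesenchymal carcinoma cells the table lists 3 (VIM, KRT10 and KRT18), so that EPCAM, PAX8 and WT1 could not be read. It lists no endothelial marker of 4 and 1 leukocyte marker of 6, LYZ, with a mean E-value of 0.11 at 16 h and 0.19 at 48 h. Of 6 fibroblast markers it lists 3, of which COL3A1 had means of 1.08 and 1.69.

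The deposited E-value is log2(N/10 + 1), where N is the TPM of a gene scaled by the authors to a spike-in RNA of the same cell. A spike-in scaled value follows the RNA content of a cell, so each difference was also computed after every cell had been brought to the same total ("same total" below). Differences are of mean E-values, 48 h minus 16 h, unless another pair is named. A gene was called higher or lower when its difference passed log2 of 1.5, a rule of size with no error attached. The scale understates the change of weakly expressed genes.

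Transcriptomic abundance, the sum of N over all genes listed, was higher at 48 h. Relative to the control median, log2 abundance at 16 h ran from −1.91 to 1.53 with a median of −0.99 (SD 0.65, n = 56 cells). At 48 h it ran from −1.94 to 0.16 with a median of −0.64 (SD 0.49, n = 53). The medians differed by 0.35, or 1.28-fold, less than the SD over the cells of either time. Means of log2 abundance differed by 0.18. Cells without values were 12 of 65 at 48 h and 2 of 58 at 16 h, and their part in these differences was not tested. The groups overlapped over almost their whole range. Of the 53 cells at 48 h, 38 lay above the 16 h median, and 3 of the 56 cells at 16 h lay above the highest cell at 48 h. The index blocks of the 48 h cells gave unequal values, since block 2 lay 0.15 and block 4 lay 0.40 above the 16 h median. Only 4 of 53 cells at 48 h and 3 of 56 at 16 h exceeded the control median.

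**Figure D1:**
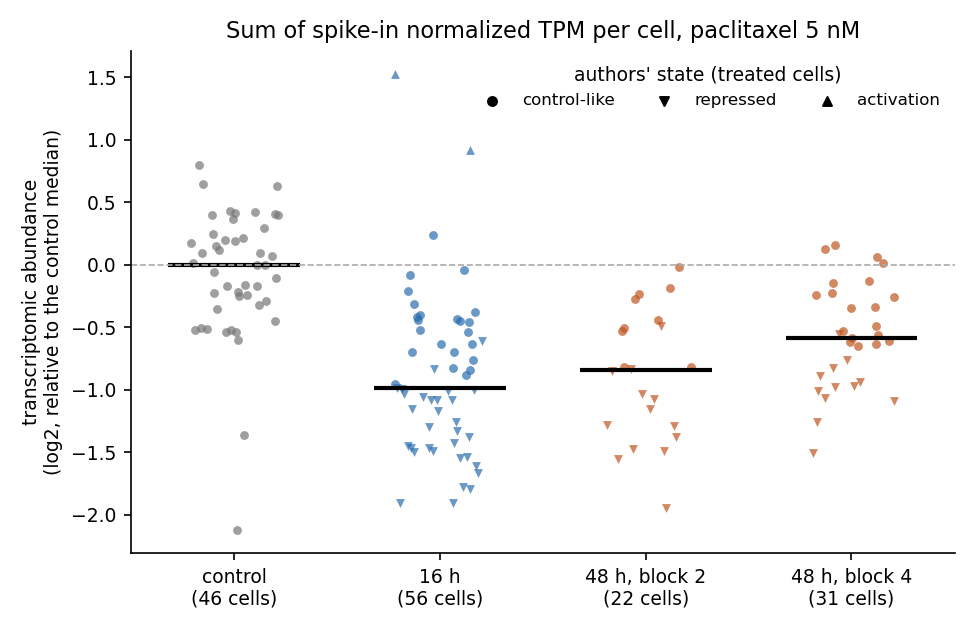
Transcriptomic abundance of each cell (y axis, log2 relative to the control median) for control cells, 16 h of paclitaxel and the index blocks of 48 h; lines are medians, and marker shapes give the state the authors assigned. The medians are −0.99 at 16 h, −0.84 in block 2 and −0.59 in block 4 of 48 h.

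The authors' annotation gives each cell a state, called here control-like, repressed (transcriptional repression) or activated. At 16 h, 31 of 56 cells were annotated as repressed (55.4%, exact 95% interval 41.5 to 68.7%), 23 as control-like (41.1%, 28.1 to 55.0%) and 2 as activated. At 48 h, 25 of 53 were repressed (47.2%, 33.3 to 61.4%) and 28 control-like (52.8%, 38.6 to 66.7%). No cell of the 53 at 48 h was annotated as activated (exact interval 0 to 6.72%). These intervals overlap, and they cover counting error only. Within the 48 h cells, 9 of 22 in block 2 and 19 of 31 in block 4 were control-like. Median abundance of repressed cells was −1.33 at 16 h and −1.07 at 48 h, and that of control-like cells was −0.46 and −0.34.

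Of 9664 genes listed, 9147 had a value above 0 in over 30% of the 16 h cells or of the 48 h cells. On the deposited scale 761 genes were higher at 48 h, 8.32% of those measured, and 34 were lower, 0.372%. At the same total 596 were higher (6.52%) and 114 lower (1.25%). Without the 2 cells annotated as activated at 16 h, a choice made after seeing the data, 1017 genes were higher and 17 lower as deposited. The median difference over all genes was 0.12 deposited and 0.07 at the same total, and 70.9% and 62.9% of genes lay above 0. Both scales called 580 genes higher and 34 lower. When each index block of the 48 h cells had to pass alone as well, 276 remained higher and 11 lower. The blocks of the 48 h cells themselves stood apart, with 1030 genes higher and 79 lower in block 4 than in block 2 on the deposited scale, and 530 and 262 at the same total. More differences passed the limit between the blocks of 48 h than between the times. The blocks hold fewer cells (22 and 31) than the times (53 and 56), and means over fewer cells pass a limit of size more readily. These counts therefore cannot say whether blocks or times differed more. Values by block stand beside many of the gene groups and genes below. Genes named below follow a rule of size and list membership, and list members named besides were chosen after their values were seen.

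**Figure D2:**
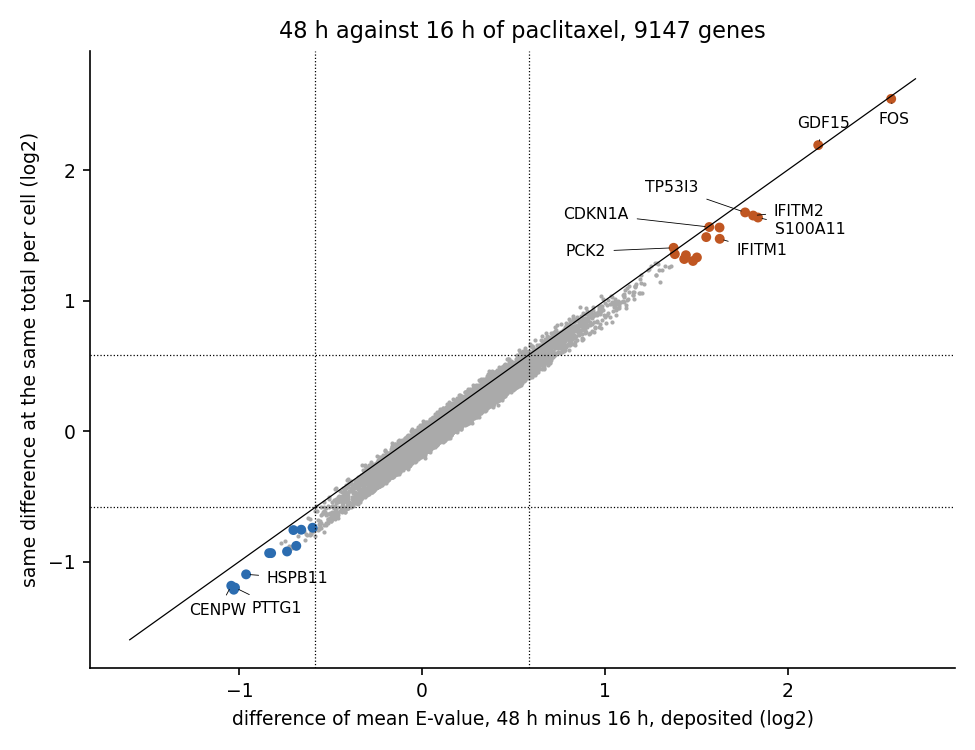
Difference of mean E-value between 48 h and 16 h for 9147 genes, deposited (x axis) and at the same total per cell (y axis), both log2; dotted lines mark 1.5-fold, coloured points are the 15 genes with the largest upward differences and the 11 lower genes that passed on both scales and with each block. FOS (2.57 and 2.55) and GDF15 (2.17 and 2.19) lie at the upper end, CENPW (−1.04 and −1.19) and PTTG1 (−1.02 and −1.20) at the lower.

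The higher genes were then placed relative to untreated cells. At 16 h, where abundance was lower than in control, 589 of the 761 genes (77.4%) were over 1.5-fold below control, beside 39.1% of all measured genes. This was 277 of the 761 (36.4%) at the same total, beside 10.5% of all. At 48 h 568 were within 1.5-fold of control, 134 were below it past that limit and 59 were above it. The 134 are 17.6%, beside 27.9% of all measured genes. At the same total the shares below were 1.31% and 6.03%. These counts share the 16 h cells with the contrast that chose the genes, and are a description. FOS and the lysosomal protease CTSB belong to the genes that came up from below control. GDF15, IFITM1, IFITM2, CDKN1A and DDIT4 had means above control at 16 h already and were further above it at 48 h. Of the 34 lower genes, 16 were below control past the limit at 16 h (47.1%) and 32 at 48 h (94.1%). Among all measured genes it was 39.1% and 27.9%. The median share of cells with a value above 0 went from 76.8 to 86.8% across the 761 genes, and the median level in such cells from 2.42 to 2.99. Both follow in part from choosing genes by a mean that includes zeros, and are a description.

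**Figure D3:**
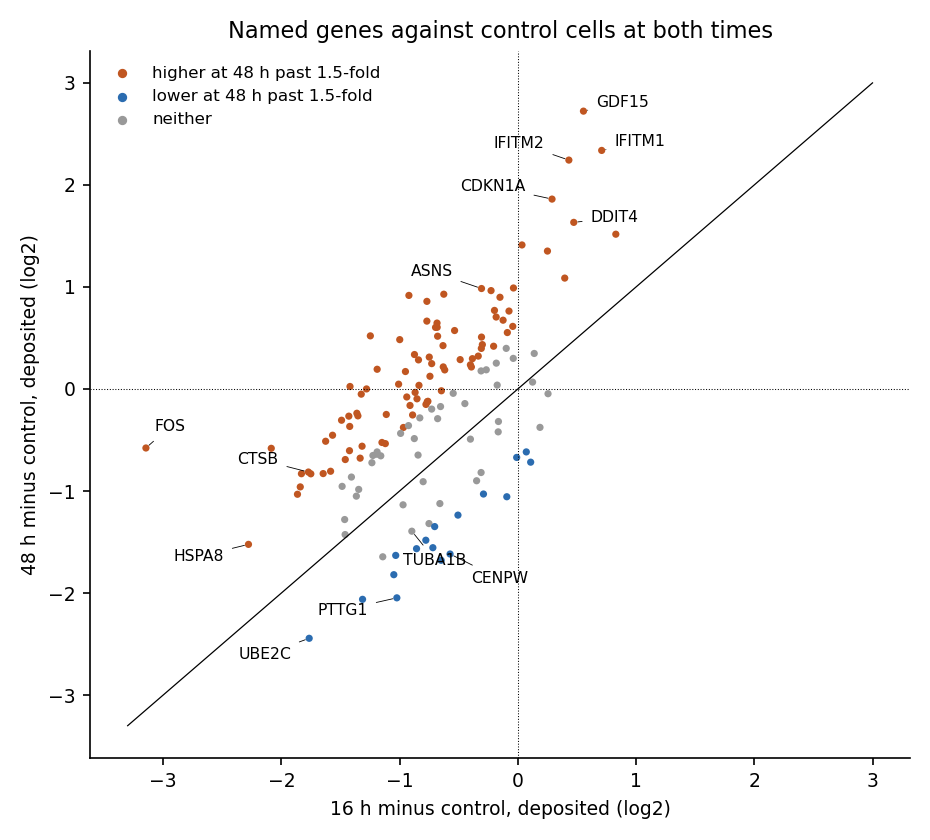
Mean E-value minus that of control cells at 16 h (x axis) and at 48 h (y axis) for the 147 named genes, deposited scale, log2; on the diagonal both times are equal. GDF15, IFITM1, IFITM2, CDKN1A and DDIT4 lie to the right of 0 and far above the diagonal, whereas FOS lies far left of 0, nearer the control level on the y axis. Both axes share the control cells.

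Targets of p53 were among the genes with the largest differences. p53 is a transcription factor that is stabilized by DNA damage and mitotic stress. Of 40 measured targets, 14 were higher at 48 h (35.0%, against 8.32% of all genes) and none was lower, and 12 were higher at the same total (all genes 6.52%). The median was 0.44 deposited and 0.42 at the same total, beside 0.12 and 0.07 for all genes, and 38 of 40 lay above 0. With block 2 alone the median was 0.38 and with block 4 alone 0.41. A total of 7 targets passed on both scales and with each block, namely CDKN1A, DDB2, GDF15, RPS27L, TIGAR, TNFRSF10B and TP53I3.

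GDF15, a secreted stress cytokine of the TGF-beta family (ENSG00000130513.6, chr19:18374731-18389176 in hg38, GENCODE 44), had E-values from 0 to 6.83 at 16 h with a median of 0. At 48 h they ran from 0 to 9.15 with a median of 3.43. The groups overlapped, and both had cells at 0. It was detected in 21 of 56 cells at 16 h (37.5%, 24.9 to 51.5%), in 38 of 53 at 48 h (71.7%, 57.7 to 83.2%) and in 8 of 46 control cells. The mean went from 1.26 (SD 1.97) to 3.43 (SD 2.71), a difference of 2.17, with 2.15 in block 2 and 2.18 in block 4. On the linear scale the mean N was 6.25-fold higher.

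CDKN1A encodes p21, an inhibitor of cyclin-dependent kinases (ENSG00000124762.13, chr6:36676460-36687337). Its E-values ran from 0 to 6.37 at 16 h with a median of 0, and from 0 to 7.20 at 48 h with a median of 2.88. It was detected in 25 of 56 (44.6%, 31.3 to 58.5%) and 36 of 53 cells (67.9%, 53.7 to 80.1%), and in 11 of 46 control cells. The difference of means was 1.57 (1.24, SD 1.79, to 2.81, SD 2.54), and 1.38 and 1.71 by block. Cells without the transcript were thus found at both times.

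TP53I3, a quinone oxidoreductase-like enzyme, had a median of 1.28 (0 to 4.18) at 16 h and 3.29 (0 to 6.41) at 48 h, a difference of means of 1.77. Unlike CDKN1A it had been below control at 16 h (1.44 against 2.69) and was at 3.21 at 48 h. RPS27L, a small ribosomal protein paralog, went from 5.62 to 6.59, DDB2, a DNA damage sensor, from 1.60 to 2.50 and the death receptor TNFRSF10B from 1.21 to 1.96. The p53 ubiquitin ligase MDM2 went from 1.92 to 2.55 with unequal blocks (1.03 in block 2, 0.35 in block 4). The list level per cell, the mean E-value of its members at the same total, lay above the 90th percentile of control cells in 10 of 56 cells at 16 h and 30 of 53 at 48 h. In block 2 this was 11 of 22 cells and in block 4 19 of 31.

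**Figure D4:**
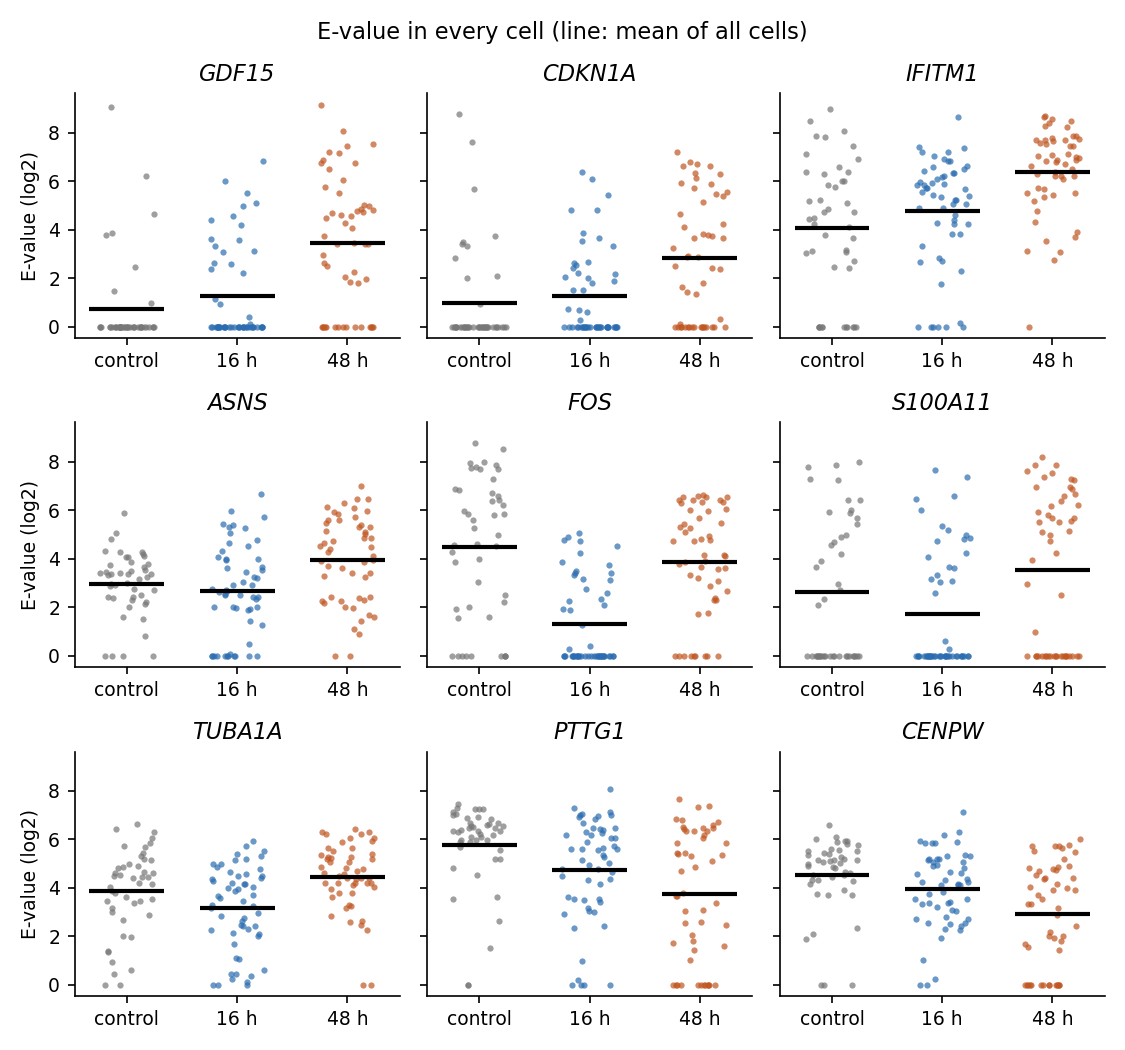
E-value (y axis, log2) in each control, 16 h and 48 h cell for 9 genes; lines are means over all cells, zeros included. GDF15, CDKN1A and S100A11 have many cells at 0 at each time and more cells above it at 48 h, whereas PTTG1 and CENPW gain cells at 0.

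Interferon-induced genes were led by the IFITM family, membrane proteins that block virus entry. Of 27 measured genes of the list, 9 were higher as deposited (33.3%), with 8 at the same total, none was lower, and the median was 0.26 and 0.28. The list was uneven. BST2, IFITM1, IFITM2 and IFITM3 passed on both scales and with each block. ISG15, a ubiquitin-like classic of the interferon response, differed by 0.21 and 0.03 on the 2 scales. The median of the list was 0.05 with block 2 and 0.37 with block 4, and UBE2L6, an enzyme that conjugates ISG15, lay at −0.26 and 1.53. Those blocks also differed in total abundance, and the part of this in the list was not tested.

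The promoters of IFITM1 and IFITM3 are shown because both genes lie in one cluster on chromosome 11 and were both higher. The windows are RefSeq sequence of GRCh38.p14, from 250 bases before to 50 after the start, 5′ to 3′ on the strand of the gene. Capitals mark the core of the interferon-stimulated response element, GAAA followed by any pair of bases and GAAA again, searched on both strands. The IFITM1 window is chr11:313790-314089 (plus strand) and that of IFITM3 chr11:320811-321110 (minus strand).
IFITM1: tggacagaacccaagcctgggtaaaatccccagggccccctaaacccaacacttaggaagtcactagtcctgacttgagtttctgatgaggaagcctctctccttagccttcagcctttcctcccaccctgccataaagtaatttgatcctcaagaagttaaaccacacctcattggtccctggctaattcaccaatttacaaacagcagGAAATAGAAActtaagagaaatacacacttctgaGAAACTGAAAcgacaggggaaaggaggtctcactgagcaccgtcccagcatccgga
IFITM3: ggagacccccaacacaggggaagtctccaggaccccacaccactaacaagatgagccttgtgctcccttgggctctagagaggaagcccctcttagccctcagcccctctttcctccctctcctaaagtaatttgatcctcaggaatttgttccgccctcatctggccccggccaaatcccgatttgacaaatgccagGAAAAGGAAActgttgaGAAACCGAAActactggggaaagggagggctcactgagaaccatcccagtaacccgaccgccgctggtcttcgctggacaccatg
Each window held 2 matches, which start 40 and 6 bases before the start of IFITM1 and 52 and 35 before that of IFITM3. The letters were found in 3.65% of 27305 promoter windows of all genes, in 2.53% of those of measured genes and in 7 of the 21 measured list members that have a window. For genes higher on both scales they were in 10 of 454 windows (2.20%). A match is a description of letters and not a site of binding.

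IFITM2 (chr11:303655-309397) had a median E-value of 5.84 (0 to 8.83) at 16 h and 7.40 (0 to 10.2) at 48 h, and a difference of means of 1.81, with 1.301 in block 2 and 2.17 in block 4. IFITM1 had medians of 5.40 (0 to 8.64) and 6.83 (0 to 8.69) and a difference of 1.63, with 0.97 and 2.09 by block. Both genes were thus highest in the 48 h cells of block 4, with wide overlap between times. IFITM3 went from 6.76 (SD 1.69) to 8.24 (SD 1.12). It had been 1.00 below control at 16 h, whereas IFITM1 and IFITM2 had been 0.71 and 0.43 above. BST2 (tetherin) went from 5.20 to 6.22. IFITM1 and IFITM2 were detected together in 50 of 56 cells at 16 h and 51 of 53 at 48 h. The 3 IFITM genes are near-identical in parts of their sequence, so reads may be split among them with error. Of 11 measured genes of MHC class I presentation, HLA-B (1.01 to 1.72) and HLA-C (2.10 to 2.97) were higher, and these are polymorphic paralogs for which the same caution holds. The list level of interferon-induced genes exceeded the 90th percentile of control cells in 4 of 56 cells at 16 h and in 18 of 53 at 48 h, of which 15 were in block 4.

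Some genes of the integrated stress response were higher at 48 h. In this pathway the factor ATF4 turns on genes for amino acid synthesis, transfer RNA charging and redox balance. Of 36 measured genes, 11 were higher on each scale (30.6%), none was lower, and 35 lay above 0 (median 0.47 deposited, 0.40 at the same total). Medians by block were 0.31 and 0.56. ASNS, DDIT3, DDIT4, HERPUD1, PSAT1, SARS and WARS passed on both scales and with each block. ATF4 had means of 3.57 and 3.95, a difference of 0.38 that was within the limit.

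ASNS, asparagine synthetase, is shown with its promoter because the element through which ATF4 acts on this gene lies close to the start. The window is chr7:97872359-97872658 (minus strand), and capitals mark TGATGNAA, a core of the C/EBP-ATF response element, searched on both strands.
ASNS: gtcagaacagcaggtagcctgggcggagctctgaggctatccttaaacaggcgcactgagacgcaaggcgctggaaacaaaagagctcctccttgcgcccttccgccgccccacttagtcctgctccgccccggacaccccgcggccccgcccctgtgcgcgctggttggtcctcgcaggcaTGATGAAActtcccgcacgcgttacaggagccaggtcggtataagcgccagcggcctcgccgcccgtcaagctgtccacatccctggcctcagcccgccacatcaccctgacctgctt
The match starts 68 bases before the start. These letters occur in 3.67% of all windows, in 1.53% of those of measured genes and in 5 of the 24 measured list members with a window, 3 of them among the 8 that were higher and have one. For genes higher on both scales they were in 10 of 454 windows (2.20%).

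ASNS had a median of 2.62 (0 to 6.64) at 16 h and 4.28 (0 to 7.00) at 48 h, beside 3.28 in control cells. The difference of means was 1.29, with 1.36 and 1.24 by block, so the blocks gave like values. DDIT4, an inhibitor of mTORC1, went from 1.88 (SD 1.56) to 3.04 (SD 1.89), beside 1.40 in control. DDIT3, the proapoptotic factor CHOP, went from 2.21 to 3.18. PSAT1 and PHGDH, enzymes of serine synthesis, went from 2.93 to 4.10 and from 3.00 to 4.13, both from below control to near it. The seryl- and tryptophanyl-tRNA synthetases SARS and WARS went from 3.54 to 4.51 and from 1.83 to 2.62. The mitochondrial carboxykinase PCK2, among the 15 largest rises, went from 1.07 to 2.45, beside 1.04 in control cells. The spread over cells widened. The SD of the list level at the same total was 0.30 in control, 0.51 at 16 h and 0.66 at 48 h. At 16 h 10 of 56 cells lay above the 90th percentile of control and 20 below its 10th, and at 48 h 24 of 53 and 8.

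Immediate early genes and feedback genes of the MAP kinase pathway had the highest median of the lists not taken from the study, 0.53 deposited and 0.51 at the same total, and all 27 measured genes lay above 0. These genes are transcribed within minutes of growth factor or stress signals. Of these, 11 were higher as deposited (40.7%), with 10 at the same total. DUSP1, DUSP6, FOS, IER2, JUND, KLF6, KLF10 and SPRY2 passed with each block as well. As deposited its median was 0.67 below control at 16 h and 0.17 below at 48 h, beside 0.43 and 0.28 below for all genes. It was 0.29 below control at 16 h and 0.12 above at 48 h at the same total. DUSP6 was its only member above control past the limit on both scales.

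FOS, the AP-1 subunit with the largest difference of any gene, is shown with its promoter. The window is chr14:75278578-75278877 (plus strand). Capitals mark TGACGT, the core of the cAMP response element, and TATAAA, both searched on both strands.
FOS: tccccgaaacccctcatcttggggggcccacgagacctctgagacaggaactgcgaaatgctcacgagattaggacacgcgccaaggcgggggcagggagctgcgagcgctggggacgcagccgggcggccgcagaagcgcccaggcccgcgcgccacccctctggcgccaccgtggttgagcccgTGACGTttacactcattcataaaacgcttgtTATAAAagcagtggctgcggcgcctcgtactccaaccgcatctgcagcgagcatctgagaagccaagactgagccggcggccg
The first match starts 64 and the second 33 bases before the start. TGACGT occurs in 8.32% of all windows and 13.0% of those of measured genes, and TATAAA in 12.0% and 4.86%. For genes higher on both scales the shares were 13.2% for TGACGT and 8.15% for TATAAA. Of the 20 measured list members with a window, 7 hold the first and 4 the second.

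FOS had a median of 0 (0 to 5.05) at 16 h and 4.16 (0 to 6.63) at 48 h. It was detected in 24 of 56 cells at 16 h (42.9%, 29.7 to 56.8%) and 44 of 53 at 48 h (83.0%, 70.2 to 91.9%), and in 37 of 46 control cells, whose median was 5.11. The difference of means was 2.57 (1.31, SD 1.76, to 3.88, SD 2.24), with 2.46 in block 2 and 2.64 in block 4, and 6.88-fold on the linear scale. The mean at 16 h was thus below those of both other groups. IER2, another immediate early gene, showed the same order, with means of 2.29 in control, 0.67 at 16 h and 1.78 at 48 h. So did the zinc finger factor KLF6 (2.26, 0.72 and 1.45) and the phosphatase DUSP1 (1.86, 0.64 and 1.40). DUSP6, a phosphatase of ERK, went from 1.07 to 2.12 beside 1.22 in control, and SPRY2, an inhibitor of receptor tyrosine kinase signalling, from 2.06 to 3.18. Cyclin D1 (CCND1) went from 2.43 to 3.18.

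S100 proteins, annexins and galectins are small calcium- or sugar-binding proteins. Of 14 measured, 6 were higher as deposited (42.9%), with 3 at the same total, none lower (median 0.51 and 0.41). S100A11 had a median of 0 (0 to 7.65) at 16 h and 4.73 (0 to 8.19) at 48 h, and was detected in 22 of 56 and 32 of 53 cells. Its difference of means was 1.84. In cells annotated as control-like the difference was 3.32, and in repressed cells 0.32, without a test. ANXA4 went from 0.54 to 1.83 and was detected in 18 and 34 cells. S100A13 was in every cell and went from 4.87 (2.73 to 6.42) to 5.93 (2.99 to 7.37). S100A4 and LGALS1 passed on the deposited scale only (0.66 and 0.69, and 0.47 and 0.52 at the same total). Of 16 TNF receptor and NF-kB genes, 5 were higher on both scales. They include the complement inhibitor SERPING1 (1.15 to 2.34), the receptor TNFRSF1A (0.91 to 1.72) and SERPINF1 (4.27 to 5.25), while the median of the list was 0.11 and 0.04, near that of all genes.

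Enzymes of oxidation and reduction were among the higher genes of several lists. Of all genes 8.32% were higher as deposited and 6.52% at the same total. Of 31 measured aldehyde and NAD(P)H-dependent oxidoreductases, 9 were higher (29.0%; 8 at the same total), and none was lower. HSD17B14, a steroid dehydrogenase, had a median of 1.94 (0 to 4.55) at 16 h and 3.35 (0 to 5.11) at 48 h, and a difference of 1.56 with 1.36 and 1.69 by block. The aldehyde dehydrogenases ALDH2 and ALDH9A1 went from 0.81 to 1.87 and from 2.03 to 3.09. Of 40 genes of fatty acid oxidation and the peroxisome, 8 were higher (20.0%), led by PHYHD1, a dioxygenase related to phytanoyl-CoA hydroxylase, with medians of 1.80 (0 to 4.39) and 3.51 (0 to 5.24). Its difference was 0.87 in block 2 and 2.17 in block 4. Of 45 NRF2, glutathione and thioredoxin genes, 9 were higher (20.0%) and 6 at the same total. Among them were GSTK1 (1.96 to 3.23) and TXNIP, an inhibitor of thioredoxin (0.84 to 1.95, and 0.59 in control). Of 24 glycolysis genes, 4 were higher, and the enolase ENO3 differed most (2.48 to 3.92). The aldolase ALDOC was found in 18 of 56 and 24 of 53 cells and had a control mean of 0.06. Of 26 genes of cholesterol synthesis and uptake, 5 were higher (19.2%) and 2 at the same total (7.69%), the latter near the share of all genes. As deposited 25 lay above 0, with a median of 0.29, and 0.09 and 0.48 by block. Fatty acid synthesis and desaturation had 2 of 20 (10.0%), FADS1 and TECR, and 1 at the same total (5.0%), both near the share of all genes.

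Lysosomal and autophagy genes had 14 of 55 measured members higher (25.5%) and 8 at the same total, none lower, and a median of 0.35 and 0.27. Medians by block were 0.21 and 0.49. PSAP, the precursor of the saposins, had a median of 2.27 (0 to 4.15) at 16 h and 3.31 (0 to 5.27) at 48 h. Its mean went from 1.96 to 3.24, which is also its control mean. The proteases CTSB and CTSD went from 2.59 to 3.55 and from 1.35 to 2.40, and progranulin (GRN) from 1.88 to 3.09. Fewer cells were in the low tail. At the same total the list level lay below the 10th percentile of control in 18 of 56 cells at 16 h and in 3 of 53 at 48 h.

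Tubulins, the family that paclitaxel binds, differed in both directions. Of 13 measured, TUBA1A, TUBB6 and TUBG2 were higher on the deposited scale, TUBA1A and TUBG2 at the same total, and TUBA1B was lower at the same total only. The median was 0.20 on either scale. TUBA1A had a median of 3.51 (0 to 5.93) at 16 h and 4.56 (0 to 6.42) at 48 h, and a difference of means of 1.299, with 1.36 and 1.26 by block. It was the only tubulin above control past the limit on both scales. TUBA1B, the alpha-tubulin with the highest mean E-value here, went from 7.35 (SD 1.01) to 6.85 (SD 1.81), a difference of −0.50 deposited and −0.69 at the same total, and its lowest cell at 48 h had 0.16 against 4.97 at 16 h. TUBA1C (−0.11), TUBB (−0.16), TUBB4B (0.36) and TUBB2A (0.03) were within the limit. The neuronal class III beta-tubulin TUBB3 had means of 0.66 and 1.05, and gamma-tubulin TUBG1 4.26 and 4.44. TUBD1 (0.20), TUBE1 (−0.15) and TUBB4A (0.50) were also within it. Alpha-tubulin genes are close paralogs and may share reads. Of 32 microtubule regulators only TBCC, a tubulin folding cofactor, was higher (1.85 to 2.61), 3.1% beside 8.32% of all genes.

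Actin, adhesion and junction genes had 12 of 66 higher (18.2%, against 8.32% of all genes) and 9 at the same total (13.6%, against 6.52%). The list median was near that of all genes, 0.17 deposited and 0.04 at the same total, beside 0.12 and 0.07. At the same total 36 of 66 lay above 0, beside 62.9% of all genes. Medians with block 2 and block 4 were 0.03 and 0.29. CORO1B, an actin-binding coronin, had medians of 0.20 (0 to 3.36) and 2.47 (0 to 4.65) and a difference of 1.38. The small GTPase RRAS went from 2.60 to 3.93. Vimentin (VIM) went from 2.21 (SD 2.19) to 3.39 (SD 2.37) and was unequal between blocks, 2.01 in block 2 and 0.60 in block 4. The gap junction gene GJA1 was lower at the same total only.

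Genes of mitosis and DNA replication were among the few lower genes. Of 52 mitotic kinases, cyclins and checkpoint genes, 4 were lower on the deposited scale (7.69%, against 0.372% of all genes), namely CDK1, CENPF, PTTG1 and UBE2C, and none was higher. CCNB1 and MAD2L1 joined them at the same total, where 6 of 52 were lower beside 1.25% of all genes. The median was −0.14 and −0.19, and as deposited it was −0.30 with block 2 and −0.05 with block 4. Among 29 spindle and kinesin genes DLGAP5 was lower, and NUSAP1 as well at the same total. Among 59 replication genes POLE2, RFC4 and RRM2 were lower, and MCM6 and TK1 as well at the same total. Medians with block 2 and block 4 were −0.34 and 0.02 for the spindle list and −0.27 and 0.08 for the replication list. Of the lower genes of these lists only PTTG1 and POLE2 passed with each block. All 59 replication genes and 51 of the 52 mitotic genes had deposited means below control at 16 h already, but so did 88.6% of all measured genes. At the same total it was 50 and 45, beside 60.7% of all, and the median of the mitotic list was 0.28 below control at 16 h and 0.47 below at 48 h. Of the 11 lower genes that passed with each block, CENPW, PTTG1, POLE2 and LRR1 are tied to chromosome segregation, replication or replisome disassembly. COQ3, DDT, FABP5, CMC1, MPP6, HSPB11 and POLR3G are not members of the mitotic lists.

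PTTG1, the securin that holds separase inactive until anaphase, is shown with its promoter because genes of this list are known for CCAAT boxes. The window is chr5:160421605-160421904 (plus strand), and capitals mark CCAAT on either strand, with a pair of matches on opposite strands that overlap in one run.
PTTG1: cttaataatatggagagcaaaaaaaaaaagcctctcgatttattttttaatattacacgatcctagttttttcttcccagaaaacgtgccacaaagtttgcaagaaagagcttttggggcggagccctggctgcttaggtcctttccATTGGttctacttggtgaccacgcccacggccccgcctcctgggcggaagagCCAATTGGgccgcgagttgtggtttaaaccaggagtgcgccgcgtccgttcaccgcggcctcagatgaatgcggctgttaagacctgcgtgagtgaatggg
The 3 matches start 103, 51 and 48 bases before the start. CCAAT occurs in 35.7% of all windows and in 30 of the 43 measured mitotic genes that have one. It is found in 13 of the 24 windows of genes lower on both scales (54.2%), in 43.6% of the 454 windows of genes higher on both and in 38.3% of the 7196 windows of measured genes.

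PTTG1 had a median of 5.29 (0 to 8.05) at 16 h and 3.77 (0 to 7.63) at 48 h, beside 6.33 in control cells. It was detected in 52 of 56 (92.9%, 82.7 to 98.0%) and 41 of 53 cells (77.4%, 63.8 to 87.7%). The difference of means was −1.02, with −1.31 in block 2 and −0.82 in block 4. High cells were found at both times, and more cells at 48 h were at 0. CENPW, a histone-fold protein of the inner kinetochore, had medians of 4.12 (0 to 7.11) and 3.34 (0 to 6.00), and was detected in 54 and 39 cells. Its mean went from 3.95 (SD 1.58) to 2.90 (SD 2.12), while its control mean was 4.52. CENPW at the same total lay 0.13 above control at 16 h and 1.06 below it at 48 h. CDK1, the kinase that drives mitotic entry, was detected in 42 of 56 and 27 of 53 cells, with medians of 2.94 (0 to 7.71) and 0.19 (0 to 7.31). POLE2, a subunit of DNA polymerase epsilon, was detected in 38 and 24 cells and went from 2.22 to 1.52. On the linear scale these differences were smaller. The mean N of PTTG1 at 48 h was 0.78 of that at 16 h, of CENPW 0.66, of CDK1 0.68 and of RRM2 0.85.

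The level of the mitotic list per cell, at the same total, had a median of 2.91 in control, 2.36 at 16 h and 2.07 at 48 h. Its highest cells had 3.72, 3.81 and 3.93. Below the 10th percentile of control were 17 of 56 cells at 16 h and 23 of 53 at 48 h, the latter 8 of 22 in block 2 and 15 of 31 in block 4. For replication genes it was 17 of 56 and 22 of 53. In cells annotated as control-like the median of the mitotic list was −0.25, and in repressed cells 0.05. CDKN1A and MKI67, a marker of cycling cells named after its values were seen, were set side by side in each cell. At 16 h 22 of 25 cells with CDKN1A had MKI67 (88.0%, 68.8 to 97.5%). At 48 h it was 21 of 36 (58.3%, 40.8 to 74.5%). Among cells without CDKN1A the counts were 18 of 31 and 7 of 17. Cells with CDKN1A had medians of 6350 and 6456 genes detected, against 5883 and 5871 without it, and the part of this in the shares was not tested. Among G1 regulators, CCND1, CCND2, CDK4, CDKN1A and E2F4 were higher, 5 of 20 on either scale (25.0%, beside 8.32% and 6.52% of all genes). Only CDKN1A passed with each block as well, and the list median was 0.07 with block 2 and 0.22 with block 4. CDK4 went from 4.05 to 4.97 and E2F4 from 1.03 to 2.03, both from below control.

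Large housekeeping groups had medians near 0. Among all genes 8.32% were higher and 0.372% lower as deposited, and 6.52% and 1.25% at the same total. Of 83 cytosolic ribosomal protein genes, RPS27 and the p53 target RPS27L were higher and none was lower, and at the same total 1 was higher and 3 lower (median −0.02 deposited, −0.21 at the same total). Of 77 respiratory chain genes 3 were higher (NDUFV1, SDHC and UQCRC1). UQCRC1 differed by −0.01 with block 2 and 1.08 with block 4. At the same total 2 were higher and 4 lower. The proteasome had ADRM1 higher, and 5 of 42 were lower at the same total, among them PSMB6 (7.56 to 7.00). These 3 groups therefore sit near 0 or below it according to the scale. Heat shock genes went both ways, with BAG1 (2.20 to 2.97) and DNAJB1 (1.60 to 2.42) higher with each block. HSPB11, which works in intraflagellar transport, was lower (3.56 to 2.60), while the constitutive chaperone HSPA8 went from 5.51 to 6.27 and stayed 1.52 below control. Of 40 endoplasmic reticulum chaperones 6 were higher (15.0%), and P4HB (2.79 to 3.65) and PDIA4 (2.15 to 2.91) are examples. Splicing factors had 1 of 36 higher (2.78%) and histone and HMG genes 2 of 33 (6.06%). RNA polymerase II and elongation genes had 3 of 37 higher (8.11%), with CDK9 (1.63 to 2.51) first. The shares of these last groups were near or under that of all genes.

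No BCL2 family, caspase or inhibitor gene passed the limit in either direction, beside 8.32% of all genes higher and 0.372% lower. The 23 measured ran from −0.30 (XIAP) to 0.44 (BAX, 0.75 to 1.19). Their median was 0.07 deposited and 0.04 at the same total, beside 0.12 and 0.07 for all genes. MCL1 had means of 0.52 and 0.78, and BCL2L1 0.23 and 0.33. Of 17 listed genes of drug efflux and paclitaxel metabolism, 5 were measured and none passed. ABCC10, which exports taxanes, had means of 0.78 and 0.98, ABCC4 0.74 and 0.49, ABCC5 0.78 and 0.69 and the oxidase CYP3A5 0.50 and 0.44. These 4 had low means at each time.

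**Figure D5:**
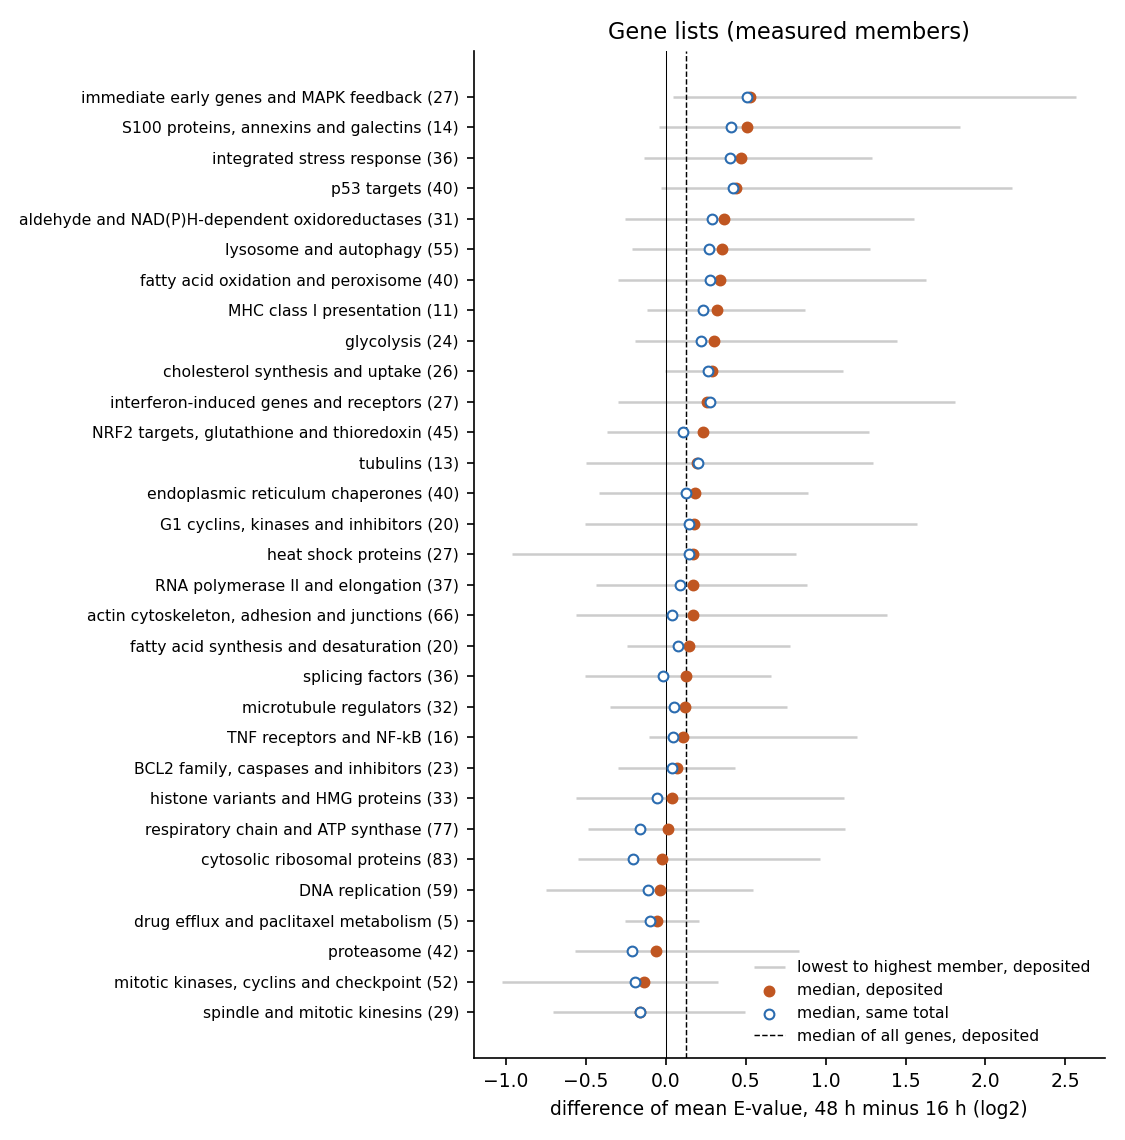
Difference of mean E-value between 48 h and 16 h (x axis, log2) for 31 gene lists: median of the measured members with filled (deposited) and open (same total) symbols, with the range of members; numbers in parentheses are measured members. Immediate early genes (0.53), S100 proteins and annexins (0.51), the integrated stress response (0.47) and p53 targets (0.44) lie highest, and the spindle and mitotic lists (−0.16 and −0.14) lowest, beside 0.12 for all genes.

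Gene sets that the study drew from these same cells are not independent evidence, and are given as values. Of its 28 oxidation-reduction genes, 18 were higher at 48 h and 14 at the same total, with a median of 0.70 and 0.62. Of its 73 response index genes, 39 and 30 were higher and the median was 0.61 and 0.48. In cells annotated as control-like the median of the index genes was 0.96, and in repressed cells 0.36. The study grouped genes as early or late in cells annotated as control-like, and only the examples its text names were used here, over all cells. The 4 early examples (CDKN1A, GDF15, IFITM1 and IFITM2) had means above control at 16 h and were higher again at 48 h. As deposited, the 10 late examples had means below control at 16 h and above it at 48 h. Of the 10, 8 passed the limit between the times. At 16 h 88.6% of all measured genes were below control as deposited. At the same total 3 of the 10 were below control at 16 h, with a median difference from control of 0.13, beside −0.07 for all genes. IFI35 was detected in 11 of 56 and 26 of 53 cells. ACACA, the acetyl-CoA carboxylase, differed by 0.21 and the desaturase SCD by 0.34, both within the limit.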

How the data were processed

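The deposited table holds log2 values, which the authors made as log2(N/10 + 1), where N is TPM scaled to spike-in RNA (3 spike-in RNAs per well). Per the labels and the study's methods, reads were trimmed with Trim Galore and quantified with RSEM 1.3.0 and Bowtie2 on hg38 with GENCODE 28. Counts and read depth are not held here, so genes detected per cell stand for depth, and doublets, which need counts, were not called. An added row of the authors' states was read as annotation.

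Mean E-values of 53 cells at 48 h and 56 at 16 h were subtracted for 9147 genes with E above 0 in over 30% of the cells of either time. Every value was also computed after N of each cell was rescaled to the median total of all 338 cells. The limit was 1.5-fold. With 1 code per time and no second culture labelled, there was no test between times. Intervals of shares are exact binomial (95%) and cover counting error only. Both comparisons with control share the control cells, and they share the treated cells with the comparison of the times. Members and gene lists were chosen with earlier results of these data known. Named genes are the 15 largest upward differences and all 11 downward ones that passed on both scales and with each index block. To these were added at most 4 per list, all tubulins and the 4 early and 10 late examples of the study's text. Coordinates are from GENCODE 44 by gene identifier (9643 of 9664 matched). Promoter windows from RefSeq (GRCh38.p14) matched 7196 of 9147 genes by symbol, with the first window of a gene used. Tables were handled with pandas 2.3.3 and numpy 2.4.6 in Python 3.11.15, intervals computed with scipy 1.17.1 and plots drawn with matplotlib 3.10.9. Scripts were tested on simulated data. Alternatives were the average, the pseudocount, each index block, the authors' states, the limit and the detection filter.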

Additional observations from a re-analysis of the deposited data

How the results depend on the processing

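With 1 code per time and no second culture labelled, no replicate could be left out, and no value carries a biological error. No paired analysis was possible because each time has 1 code and cells carry no pairing. Of 147 named genes, 141 kept their sign under every alternative run, and so did 104 of the 105 past the limit. UQCRC1 reversed to −0.013 with index block 2 alone. The difference in total abundance (0.35) ranged from 0.15 to 0.40 and was 0.18 as a mean of log2 totals, which moved it by less than the spread over cells. Counts of genes depended more on the setting. For higher genes on the deposited scale (761), a pseudocount of 1 gave 2292, block 2 alone 442, block 4 alone 1392 and a 2-fold limit 90. For lower genes (34), linear means gave 81, a pseudocount of 1 gave 345, block 2 alone 189, a 2-fold limit 3, control-like cells alone 177, repressed cells alone 112 and the same total 114. At the same total, higher genes (596) numbered 1950 with a pseudocount of 1, 61 with a 2-fold limit and 942 in repressed cells. Lower genes there (114) numbered 573 with a pseudocount of 1, 219 with block 2, 194 with block 4, 4 with a 2-fold limit, 273 in control-like and 315 in repressed cells. The median of the immediate early genes was 1.03 with a pseudocount of 1. An alternative chosen after seeing the data left out the 2 cells annotated as activated at 16 h, which gave 1017 higher and 17 lower genes on the deposited scale, and 615 and 107 at the same total. The cause of these shifts was not tested. Low values limit the scale, since a cell at 0 can hold an undetected transcript.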

Other observations

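Some genes outside the lists, named after their values were seen, differed between the times by more than the limit on both scales. C1orf54 had mean E-values of 2.41 in control, 2.89 at 16 h and 4.25 at 48 h. SNCG, which encodes gamma-synuclein, had means of 4.70, 5.25 and 6.29. BEX2 had means of 1.80, 1.82 and 3.01. In all, 52 genes were higher at 48 h on both scales and also above control there on both scales. On the deposited scale 43 of them had been within the limit of control at 16 h, and 2 had been above it past the limit. At the same total 11 had been above control past the limit at 16 h, among them C1orf54 (1.02) and SNCG (1.22).

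Levels of gene lists were also compared across the cells of each time, as a description with no test, since cells share a run and the lists share the scaling to one total. The p53 target level and the mitotic level had a Pearson r of 0.21 (Spearman rho 0.25) over 56 cells at 16 h and −0.28 (−0.30) over 53 cells at 48 h, beside −0.25 (−0.10) over 46 control cells. The p53 and interferon levels had −0.24 (−0.26) at 16 h and 0.43 (0.41) at 48 h, beside 0.29 (0.18) in control cells. The 48 h values pool both index blocks. Interferon levels above the 90th percentile of control were found in 3 of 22 cells of block 2 and 15 of 31 of block 4. For p53 targets it was 11 and 19 cells. The part of the blocks in these correlations was not tested. CDKN1A and GDF15 were detected together in 15 of 56 cells at 16 h, 30 of 53 at 48 h and 5 of 46 control cells.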
